A study of Mus musculus with 6 samples.

Results

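The genes described here are 40 immediate early, stress and heat shock genes, measured by RNA-seq in CD11b+ cells from the mouse cortex. They were chosen by gene symbol, from families whose mRNA can be induced while tissue is dissociated into cells. All 40 were among the 16516 genes of the deposited table, and all 40 were among the 13151 genes that passed the filter on low counts. The 4LPS mice had received intraperitoneal lipopolysaccharide (LPS, Escherichia coli, 500 µg/kg) once a day for 4 days. The NS mice had received normal saline on the same 4 days. All mice were male C57BL6/J mice aged 8 to 10 weeks. Cortices were taken at D7, 7 days after the first injection, dissociated with an enzymatic kit, and passed over anti-CD11b magnetic beads (MACS). Each of the 3 samples per group was RNA pooled from 2 mice, so p-values measure the spread between these pools. The labels call the cells microglia, but the beads retain any cell with CD11b on its surface. All 6 samples went through the dissociation, so the level of these genes before dissociation was not measured here, and the sources used here do not give the hour at which each sample was processed.

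Immediate early genes are transcribed within minutes of a stimulus, without new protein synthesis, from promoters already bound by factors such as SRF and CREB. Many encode transcription factors, among them the FOS and JUN proteins that pair as AP-1, the EGR zinc finger proteins and the NR4A orphan nuclear receptors, and their mRNAs decay fast. Heat shock genes are switched on by HSF1 when proteins misfold. In microglia both sets respond to inflammatory signals in the animal and also to warm enzymatic dissociation after death.

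Depth was nearly equal, with total counts of 15164100 to 15462400 in 4LPS and 15158300 to 15746600 in NS. All 12 microglia markers were detected, with a summed level of 47581 to 48199 CPM in 4LPS samples and 47644 to 50617 CPM in NS samples (CPM, here counts scaled to a common library total after TMM normalization). Single markers moved both ways. In the test described below 2 of the 12 rose and 1 fell, against 9.95% and 6.43% of all genes tested. Every 4LPS sample was above every NS sample in 5 of them and below in 6, against 19.9% and 17.5% of all genes. NS replicate 3 stood apart from the other NS samples. Its counts differed from theirs with a chi-square of 21.4 to 24.4 per gene on average, where sampling noise alone gives about 1, against 5.92 between NS replicates 1 and 2. The summed markers of endothelial cells were 324, 380 and 584 CPM in 4LPS replicates 1 to 3, against 731, 589 and 1039 CPM in NS replicates 1 to 3. Neutrophil markers summed to 1834, 1279 and 1563 CPM in 4LPS, against 910, 872 and 1329 CPM in NS, and 1 of the 9 tested rose. Natural killer and T cell markers summed to 183, 173 and 209 CPM in 4LPS, against 8.62, 9.24 and 14.8 CPM in NS. Of the 9 tested 8 rose (9.95% of all genes tested did). The part of these cells in the results below was not tested. Choroid plexus markers summed to 2257, 1.97 and 544 CPM in 4LPS, against 6711, 5810 and 666 CPM in NS. NS replicate 3 was thus the NS sample with the highest endothelial and neutrophil sums and the lowest choroid plexus sum. Results that rest most on it are given below with and without it.

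In the comparison of 4LPS with NS, 2 of the 40 genes rose and none fell at an adjusted p under 0.05 (edgeR's quasi-likelihood test with Benjamini-Hochberg adjustment over all 13151 genes). The 2 were *Btg1* and *Mafk*. Across all genes tested, 9.95% rose and 6.43% fell, beside 2 higher (5.0%) and 0 lower among the 40. In a set of 40 genes these gaps amount to few genes. The count of members higher also changed with the fit and the samples used (below). At an unadjusted p under 0.05 there were 8 of the 40 (33.7% of all genes tested were), namely *Btg1*, *Mafk*, *Fos*, *Junb*, *Gadd45g*, *Per1*, *Fosl2* and *Sgk1*. With DESeq2 in place of edgeR, *Btg1*, *Sgk1* and *Per1* rose (10.9% of all genes did) and *Gadd45g* fell (7.54% of all genes did). The median log2 fold change of 4LPS over NS was 0.18 over the 40 genes and -0.02 over all genes tested, with 26 of the 40 above 0 and 14 below it. In 7 of the 40 every 4LPS sample was above every NS sample (17.5%, against 19.9% of all genes), and in 2 every 4LPS sample was below (5.0%, against 17.5% of all genes). In the other 31 the groups overlapped. The counts were taken after TMM scaling. Of all genes called, 60.8% were higher in 4LPS with TMM scaling and 34.6% without any composition factor, where *Btg1* and *Mafk* no longer passed and *Gadd45g* fell. Fewer cells of a type and less RNA per cell cannot be told apart in these bulk samples.

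**Figure D1:**
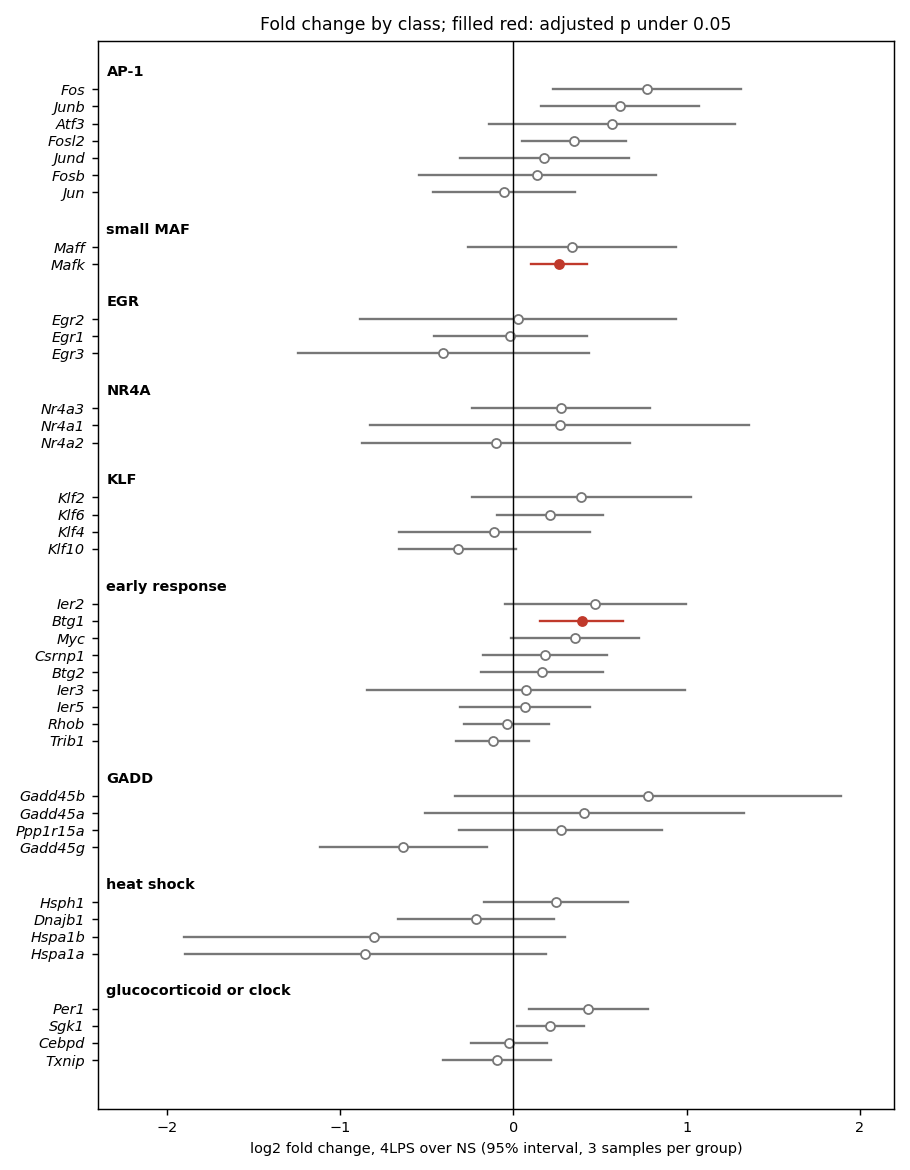
Log2 fold change of 4LPS over NS for the 40 genes, grouped by family, from edgeR with 3 samples per group. Circles are the fitted values, lines the 95% intervals, and filled red circles the genes past an adjusted p of 0.05. *Btg1* (0.39) and *Mafk* (0.26) are the only filled circles, and the widest intervals are those of *Gadd45b*, *Nr4a1*, *Hspa1a* and *Hspa1b*.

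*Btg1* encodes an antiproliferative protein that recruits the CCR4-NOT deadenylase to mRNA. It had 289, 321 and 338 CPM in 4LPS replicates 1 to 3, against 211, 232 and 278 CPM in NS replicates 1 to 3. All 4LPS samples were above all NS samples. The log2 fold change was 0.39 (SE 0.10, edgeR adjusted p = 0.0381, n = 3 per group). *Mafk* encodes a small MAF protein, which has no activation domain of its own and pairs with NRF2 or BACH1. Its levels were 32.6, 33.5 and 36.1 CPM in 4LPS, against 28.8, 27.8 and 28.6 CPM in NS, again with no overlap. The log2 fold change was 0.26 (SE 0.07, adjusted p = 0.0397). Both calls were close to the threshold. *Mafk* was lost on leaving out any 1 of the 6 samples (adjusted p 0.0540 without NS replicate 3 to 0.117 without 4LPS replicate 3). *Btg1* was lost on leaving out 4LPS replicate 2 (0.0900), 4LPS replicate 3 (0.101), NS replicate 1 (0.108) or NS replicate 2 (0.105), and held without 4LPS replicate 1 (0.0384) or NS replicate 3 (0.00415). *Maff*, the other small MAF gene, was at 1.82, 2.24 and 2.92 CPM in 4LPS and 1.83, 1.70 and 1.98 CPM in NS, with a log2 fold change of 0.34 (SE 0.26, adjusted p = 0.387). *Mafk* overlaps the gene *Tmem184a* on the opposite strand, and the sources used here do not say whether the counting used strand. The stretches before the RefSeq start sites of the 2 genes that rose are shown because both hold TGACG, the core of the cyclic AMP response element (CRE), to which CREB and ATF proteins bind. They lie on the plus strand in GRCm39, at chr10:96452663-96452862 for *Btg1*, which ends beside the annotated start of the gene, and at chr5:139777171-139777290 for *Mafk*, which lies inside the annotated gene because another transcript starts further upstream. Capitals mark the core, which reads CGTCA where it is on the opposite strand, as in both matches of *Btg1*.
Btg1: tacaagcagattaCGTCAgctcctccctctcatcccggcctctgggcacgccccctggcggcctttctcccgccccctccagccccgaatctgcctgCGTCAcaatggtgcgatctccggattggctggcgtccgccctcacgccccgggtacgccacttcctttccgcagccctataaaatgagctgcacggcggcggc
Mafk: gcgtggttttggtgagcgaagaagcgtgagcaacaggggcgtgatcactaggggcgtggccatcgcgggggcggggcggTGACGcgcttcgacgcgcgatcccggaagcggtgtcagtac

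None of the 7 AP-1 genes passed the test, and they differed among themselves. *Fos*, the subunit that cannot pair with itself and needs a JUN partner, had 1010, 1315 and 1705 CPM in 4LPS, against 555, 947 and 860 CPM in NS. All 4LPS samples were above all NS samples, and the log2 fold change of 0.77 (SE 0.23) did not pass (adjusted p = 0.0599). Its mean was 1344 ± 348 CPM in 4LPS and 787 ± 206 CPM in NS (SD, n = 3 each). *Junb*, a JUN protein with weaker activating capacity than JUN, had 793, 857 and 1232 CPM in 4LPS, against 480, 705 and 694 CPM in NS. Its groups did not overlap either, with a log2 fold change of 0.62 (SE 0.20, adjusted p = 0.0692). *Jun* itself had 1283, 1356 and 1808 CPM in 4LPS, against 1202, 1837 and 1581 CPM in NS. The highest sample was an NS sample, the groups overlapped, and the log2 fold change was -0.06 with a 95% interval of -0.46 to 0.35 (adjusted p = 0.853). *Fosl2*, which encodes the more stable FOS protein FRA2, had 32.3, 31.2 and 30.4 CPM in 4LPS, against 22.2, 21.6 and 30.0 CPM in NS. Its 4LPS samples lay close together, NS replicate 3 was almost level with the lowest of them, and the log2 fold change was 0.35 (SE 0.13, adjusted p = 0.104). *Atf3*, a stress-induced partner of AP-1 that restrains inflammatory transcription, had 198, 228 and 320 CPM in 4LPS, against 111, 137 and 256 CPM in NS. NS replicate 3 was above 2 of the 4LPS samples, and the log2 fold change was 0.57 (SE 0.31, adjusted p = 0.229). *Jund* and *Fosb* had log2 fold changes of 0.18 and 0.14, with overlapping groups. *Junb* overlaps the gene *Prdx2* on the opposite strand. *Fos* passed without 4LPS replicate 1 (log2 fold change 0.95, adjusted p = 0.0409), and *Junb* passed on leaving out no single sample.

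The proximal promoters of *Fos* and *Junb* are shown because these 2 genes had the largest fold changes of the 7 in which every 4LPS sample was above every NS sample. Both are 120 bases that end at the base before the RefSeq start, at chr12:85520544-85520663 on the plus strand for *Fos* and at chr8:85705378-85705497 on the minus strand for *Junb* (GRCm39). Capitals mark the CRE core.
Fos: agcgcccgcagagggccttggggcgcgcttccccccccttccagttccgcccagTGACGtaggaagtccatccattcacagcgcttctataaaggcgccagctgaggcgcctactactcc
Junb: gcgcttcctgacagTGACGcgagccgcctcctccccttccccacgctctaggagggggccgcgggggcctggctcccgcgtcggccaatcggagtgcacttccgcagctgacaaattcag

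Within each sample *Fos* and *Junb* stood higher relative to *Jun* in 4LPS than in NS. The ratio of *Fos* to *Jun* in FPKM (fragments scaled for gene length and library total) was 1.25, 1.54 and 1.51 in 4LPS, against 0.733, 0.819 and 0.866 in NS. The ratio of *Junb* to *Jun* was 1.15, 1.18 and 1.28 in 4LPS, against 0.744, 0.714 and 0.820 in NS. In FPKM *Fos* thus exceeded *Jun* in every 4LPS sample and lay below it in every NS sample, and so did *Junb*. This change of order rests on the scaling for gene length. In CPM, which is not scaled for length, both lay below *Jun* in every sample of both groups. The ratio of *Egr1* to *Jun* was 0.336, 0.315 and 0.347 in 4LPS, against 0.325, 0.329 and 0.321 in NS, with overlap. *Jund* to *Jun* gave 0.487, 0.456 and 0.507 in 4LPS, against 0.432, 0.454 and 0.351 in NS, where the nearest samples were almost level. *Fos* to *Egr1* was 3.73, 4.89 and 4.34 in 4LPS, against 2.25, 2.49 and 2.70 in NS. These ratios were chosen after the values were seen. With 3 samples per group an exact two-sided permutation test cannot go below p = 0.1, which was the value for *Fos*, *Junb* and *Jund* to *Jun* and for *Fos* to *Egr1* (0.225 after Benjamini-Hochberg adjustment over the 9 ratios, shares and sums computed).

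**Figure D2:**
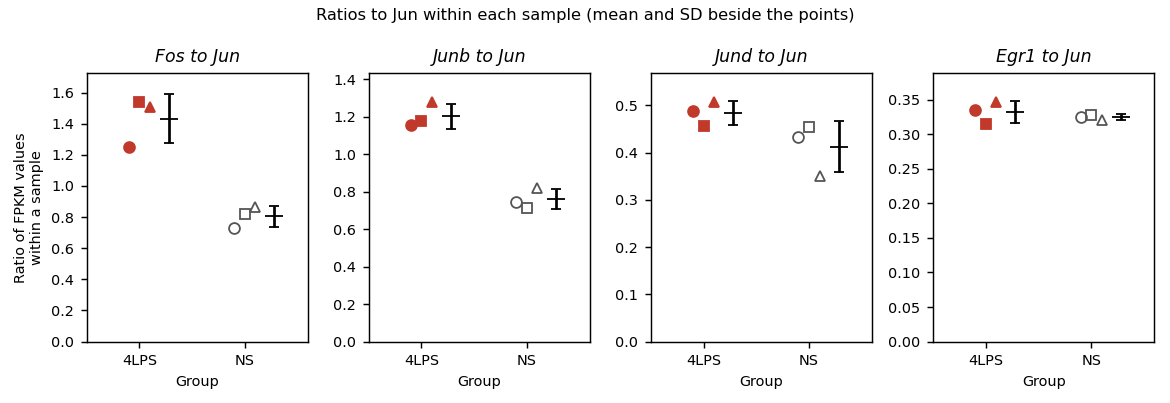
Ratio of the FPKM of *Fos*, *Junb*, *Jund* and *Egr1* to that of *Jun* within each sample, 4LPS (filled) and NS (open). Circles, squares and triangles are replicates 1, 2 and 3, and the bar beside them is the mean with its SD. The *Fos* ratio is 1.25 to 1.54 in 4LPS and 0.733 to 0.866 in NS, while the *Egr1* ratio overlaps between the groups.

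These genes spanned a wide range of levels. *Rhob*, which encodes a small GTPase of endosomes, was the most abundant at a mean of 1094 FPKM over the 6 samples, followed by *Fos* (578 FPKM), *Jun* (520 FPKM), *Junb* (506 FPKM) and *Txnip* (427 FPKM). *Nr4a3* was the least abundant at 0.41 FPKM, and the median over the 40 genes was 24.8 FPKM. In this order *Fos*, *Jun* and *Junb* did not differ beyond their spread over the 6 samples, since *Fos* alone ran from 318 to 899 FPKM. The order of *Fos* and *Jun* in FPKM differed by group, at means of 711 and 493 FPKM in 4LPS and 444 and 547 FPKM in NS. In CPM, without scaling for length, *Fos* was below *Jun* in both groups.

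**Figure D3:**
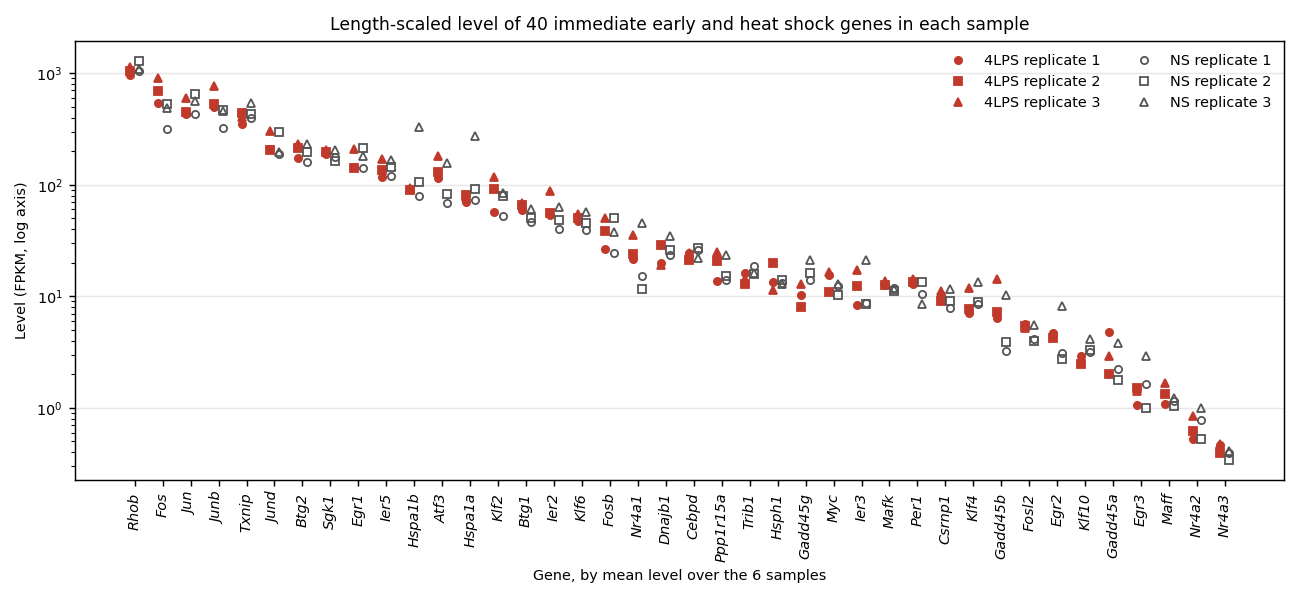
FPKM of each of the 40 genes in each sample on a log axis, ordered by the mean over the 6 samples, with 4LPS samples filled red and NS samples open. *Rhob* is highest (mean 1094 FPKM) and *Nr4a3* lowest (0.41 FPKM), and the open triangles of NS replicate 3 lie far above the other samples for *Hspa1a* and *Hspa1b*.

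No EGR, NR4A or KLF gene passed the test. *Egr1*, a zinc finger factor induced through SRF in most cell types, had 414, 410 and 602 CPM in 4LPS, against 376, 580 and 487 CPM in NS. The groups overlapped throughout, with a log2 fold change of -0.02 and a 95% interval of -0.46 to 0.42 (adjusted p = 0.958). *Egr2* had 12.8, 11.4 and 12.9 CPM in 4LPS, against 7.93, 6.98 and 21.5 CPM in NS. NS replicate 3 was the highest of the 6 and the other NS samples the lowest, so the log2 fold change was 0.03 over all samples. Its relative *Egr3* had 3.91, 5.71 and 5.42 CPM in 4LPS, against 5.85, 3.65 and 10.4 CPM in NS, again with NS replicate 3 the highest. *Nr4a1*, the orphan receptor NUR77, had 48.7, 54.3 and 81.6 CPM in 4LPS, against 31.9, 25.1 and 96.4 CPM in NS, with a log2 fold change of 0.27 (SE 0.47, adjusted p = 0.729). Here too NS replicate 3 was the highest sample and the other NS samples the lowest. *Nr4a2* and *Nr4a3* stayed at or under 2.79 CPM in every sample. *Klf2*, a factor of quiescence in leukocytes and endothelium, had 89.4, 146 and 188 CPM in 4LPS, against 77.2, 119 and 126 CPM in NS. Replicate 1 was the lowest sample of both groups, and the log2 fold change was 0.39 (SE 0.27, adjusted p = 0.345). *Klf6* and *Klf4* had log2 fold changes of 0.21 and -0.11. *Klf10*, a gene induced by TGF-beta, had 8.23, 7.07 and 7.46 CPM in 4LPS, against 8.37, 8.99 and 11.1 CPM in NS. Its 4LPS samples were all below its NS samples, by a small margin in the nearest pair, with a log2 fold change of -0.32 (SE 0.15, adjusted p = 0.166). *Klf2* overlaps *Eps15l1* on the opposite strand.

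Among the other early response genes, those that did not pass the test had log2 fold changes between -0.12 (*Trib1*, a pseudokinase that directs protein degradation) and 0.47 (*Ier2*). *Ier2* had 68.4, 71.2 and 113 CPM in 4LPS, against 47.8, 58.0 and 76.1 CPM in NS (adjusted p = 0.182). *Myc*, the growth regulator, had 33.3, 23.7 and 36.1 CPM in 4LPS, against 25.1, 21.3 and 26.4 CPM in NS, and its log2 fold change of 0.36 passed only without 4LPS replicate 2 among the single samples left out (0.53, adjusted p = 0.0310). *Btg2*, the relative of *Btg1*, had a log2 fold change of 0.17, and *Rhob* one of -0.04 with a 95% interval of -0.28 to 0.20. *Ier3*, *Ier5* and *Csrnp1* had log2 fold changes of 0.07, 0.07 and 0.18.

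The GADD genes, which are induced by DNA damage and other stress, had fold changes of both signs, and none passed the test. *Gadd45g* had 8.43, 6.66 and 10.5 CPM in 4LPS, against 10.7, 12.7 and 16.4 CPM in NS. All 4LPS samples were below all NS samples, the nearest pair by little, and the log2 fold change was -0.63 (SE 0.21, adjusted p = 0.0752). *Gadd45b*, the member induced by NF-kB, had 6.48, 7.34 and 14.5 CPM in 4LPS, against 3.02, 3.71 and 9.79 CPM in NS. In both groups replicate 3 was the highest, by 2.10 times the mean of the other 2 in 4LPS and by 2.91 times in NS. The log2 fold change of *Gadd45b* was 0.78, the largest of the 40, with an SE of 0.48 (adjusted p = 0.291). *Gadd45a* and *Ppp1r15a*, whose product GADD34 reverses the phosphorylation of eIF2alpha, had log2 fold changes of 0.41 and 0.27 with overlapping groups.

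No heat shock gene among the 40 passed the test, and the inducible HSP70 genes were set apart by 1 sample. *Hspa1a* had 179, 209 and 203 CPM in 4LPS, against 174, 225 and 670 CPM in NS. *Hspa1b* had 237, 236 and 247 CPM in 4LPS, against 190, 258 and 806 CPM in NS. The 4LPS samples lay between the 2 lower NS samples for *Hspa1a* and *Hspa1b* alike, and NS replicate 3 alone was high, at 3.36 and 3.60 times the mean of the other NS samples. Over all samples the log2 fold changes were -0.85 for *Hspa1a* (SE 0.45, adjusted p = 0.219) and -0.80 for *Hspa1b* (SE 0.47, adjusted p = 0.268). Without NS replicate 3 they were -0.02 (adjusted p = 0.936) and 0.10 (adjusted p = 0.580). *Dnajb1*, the HSP40 co-chaperone that HSF1 induces with HSP70, had 55.6, 82.0 and 54.6 CPM in 4LPS, against 61.1, 69.7 and 92.1 CPM in NS. NS replicate 3 was again the highest sample, and the log2 fold change was -0.21 (SE 0.19, adjusted p = 0.472), or -0.03 without that sample (adjusted p = 0.929). *Hsph1*, the HSP110 exchange factor, was highest in 4LPS replicate 2 and not in NS replicate 3, with 43.8, 64.6 and 37.8 CPM in 4LPS, against 39.8, 43.8 and 39.8 CPM in NS.

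*Hspa1a* and *Hspa1b* are near-identical neighbouring genes on chromosome 17, so the division of reads between them is uncertain. Their promoters are shown because the first 250 bases upstream differ at only 3 positions (98.8% the same). They lie at chr17:35191133-35191382 for *Hspa1a* and at chr17:35178215-35178464 for *Hspa1b*, both on the minus strand (GRCm39). Capitals mark the bases that differ.
Hspa1a: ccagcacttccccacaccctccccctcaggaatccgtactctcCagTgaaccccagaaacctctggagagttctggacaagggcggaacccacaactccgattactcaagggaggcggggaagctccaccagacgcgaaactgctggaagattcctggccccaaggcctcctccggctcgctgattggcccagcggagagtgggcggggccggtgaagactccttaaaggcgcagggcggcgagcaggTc
Hspa1b: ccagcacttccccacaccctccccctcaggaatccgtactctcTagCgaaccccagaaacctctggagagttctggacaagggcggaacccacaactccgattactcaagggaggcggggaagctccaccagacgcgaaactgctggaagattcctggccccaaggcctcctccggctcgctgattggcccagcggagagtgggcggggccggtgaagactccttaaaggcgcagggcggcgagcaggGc
Summed over both genes, the level was 416, 444 and 450 CPM in 4LPS, against 364, 483 and 1476 CPM in NS. *Hspa1a* took 43.1%, 47.0% and 45.1% of this sum in 4LPS and 47.8%, 46.5% and 45.4% in NS. NS replicate 3 thus lay within the range of the other samples in this share, while it stood far above them in the sum.

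Of the 4 members known as glucocorticoid-induced or clock-linked genes, none passed the test. *Per1*, a repressor of the circadian clock that glucocorticoids induce, had 58.3, 61.2 and 65.2 CPM in 4LPS, against 43.7, 57.0 and 36.2 CPM in NS. All 4LPS samples were above all NS samples, with a log2 fold change of 0.43 (SE 0.15, adjusted p = 0.0854), and *Per1* was the only one of the 7 genes with this separation whose lowest sample was NS replicate 3. It passed without NS replicate 2 (log2 fold change 0.63, adjusted p = 0.0127). *Sgk1*, a kinase of ion transport and survival, had 419, 447 and 466 CPM in 4LPS, against 367, 350 and 432 CPM in NS, with a log2 fold change of 0.21 (SE 0.08, adjusted p = 0.120). *Txnip*, an inhibitor of thioredoxin, and *Cebpd*, a bZIP factor, had log2 fold changes of -0.10 and -0.02. A stretch of the *Sgk1* promoter is shown because it held the only match to the glucocorticoid response element among the 33 genes searched. The letters searched were AGAACA and TGTTC with 3 bases of any kind between them, and only exact matches were counted. The match in *Sgk1* is 1 of the 33 genes (3.03%), and 0.0333% of all 27025 genes in the RefSeq promoter table held one. A single match, in a gene of a class known as glucocorticoid-induced or clock-linked, gives no measure of enrichment among the 33. The stretch lies 210 to 151 bases before the RefSeq start at chr10:21869579-21869638 on the plus strand (GRCm39), inside the annotated gene. Capitals mark the match on both strands.
Sgk1: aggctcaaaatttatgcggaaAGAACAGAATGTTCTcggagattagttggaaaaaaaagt

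Much of the spread within a group ran through many of these genes at once. 4LPS replicate 3 was the highest 4LPS sample in 30 of the 40 genes (75%, against 35.0% of all genes). 4LPS replicate 1 was the lowest in 25 (62.5%, against 32.8% of all genes). NS replicate 3 was the highest NS sample in 28 (70%, against 42.7% of all genes). NS replicate 1 was the lowest in 26 (65%, against 32.4% of all genes). The median deviation of the 40 genes from their group mean was -0.18, -0.04 and 0.17 on the log2 scale in 4LPS replicates 1 to 3, and -0.26, -0.07 and 0.27 in NS replicates 1 to 3. Over all genes tested this median lay between -0.01 and 0.02 in every sample. In 30 of the 40 genes (75%, against 26.8% of all genes) replicate 3 was above the mean of the other samples of its group in 4LPS and in NS alike, among them *Gadd45b*, *Ier3*, *Atf3*, *Klf4* and *Nr4a1*. In 4 more this held in 4LPS only, in 4 in NS only and in 2 in neither. Replicate 3 was high in most of the 40 genes in each group taken alone, so a high joint count follows from that. It does not show that same-numbered samples are linked. Of all 6 samples, 4LPS replicate 3 was the highest for *Fos*, *Junb* and *Jund*, while NS replicate 3 was the highest for *Hspa1a*, *Hspa1b*, *Nr4a1*, *Egr2* and *Egr3*. The summed markers of endothelial cells (above) and of pericytes and smooth muscle were also highest in replicate 3 of each group, the pericyte sum being 137, 199 and 304 CPM in 4LPS and 272, 217 and 467 CPM in NS. Of the 12 endothelial markers 4 fell in 4LPS and none rose, of the 8 pericyte markers none passed, and none of either list was at 0 in all samples. Their part in the spread of the 40 genes was not tested.

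**Figure D4:**
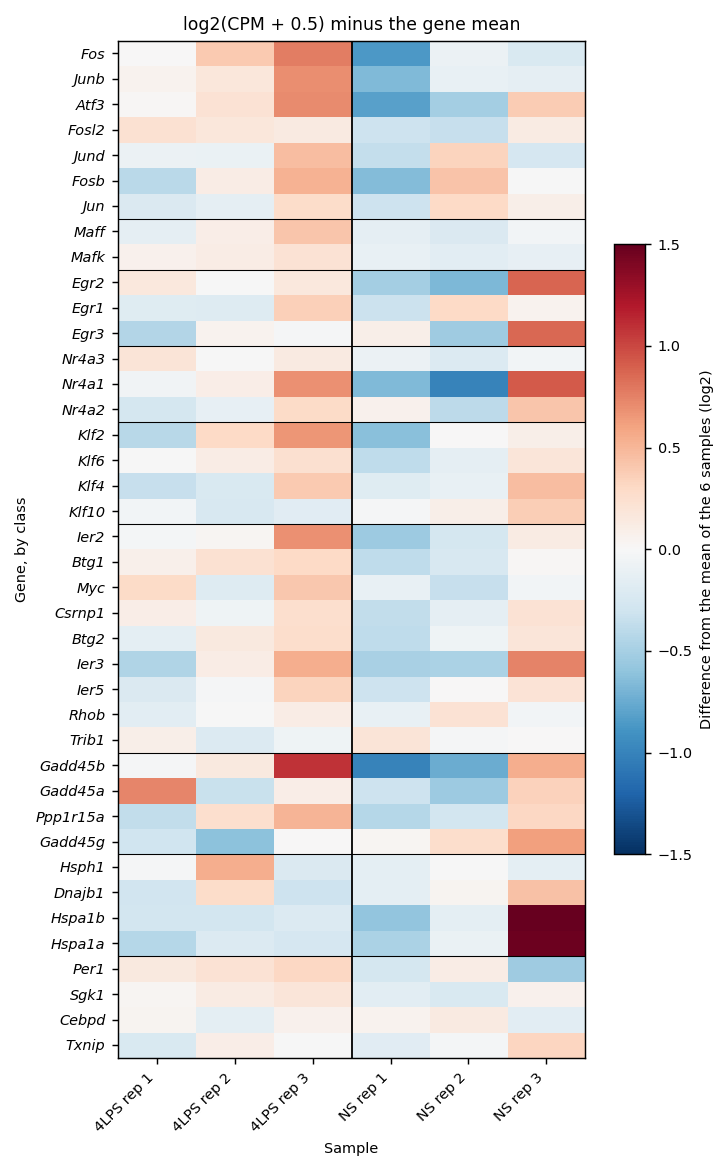
Level of the 40 genes in each sample as log2(CPM + 0.5) minus the mean of the gene over the 6 samples, by family, 4LPS on the left and NS on the right. Red is above and blue below the mean of the gene, on a scale that ends at 1.5. The column of NS replicate 1 is mostly blue and those of 4LPS replicate 3 and NS replicate 3 mostly red, with the deepest red at *Hspa1a* and *Hspa1b* in NS replicate 3.

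NS replicate 3 had a large effect on which genes passed. Without it, 8 of the 40 rose (12.2% of the 13327 genes then tested did) and none fell (9.12% of all genes did). These were *Gadd45b* (log2 fold change 1.49, adjusted p = 0.0292), *Nr4a1* (1.11, 0.0137), *Atf3* (1.01, 0.0120), *Egr2* (0.73, 0.00905), *Fosl2* (0.52, 0.00474), *Btg1* (0.51, 0.00415), *Klf6* (0.37, 0.0286) and *Sgk1* (0.31, 0.0122). *Mafk* did not pass in that fit. *Fos* and *Junb* still did not pass, at log2 fold changes of 0.84 (adjusted p = 0.0610) and 0.70 (adjusted p = 0.0596). Without 4LPS replicate 3, none of the 40 passed (6.36% of all genes rose and 3.25% fell), and likewise without NS replicate 1 (5.89% rose and 2.78% fell). Without 4LPS replicate 1, *Fos* and *Btg1* rose (6.83% of all genes did) and none fell (4.16% did). Without 4LPS replicate 2, *Myc* alone rose (6.98% of all genes did) and none fell (2.71% did). Without NS replicate 2, *Per1* alone rose (7.37% of all genes did) and none fell (4.14% did). The median log2 fold change of the 40 genes was 0.30 without NS replicate 3, 0.05 without 4LPS replicate 3 and 0.04 without NS replicate 1.

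**Figure D5:**
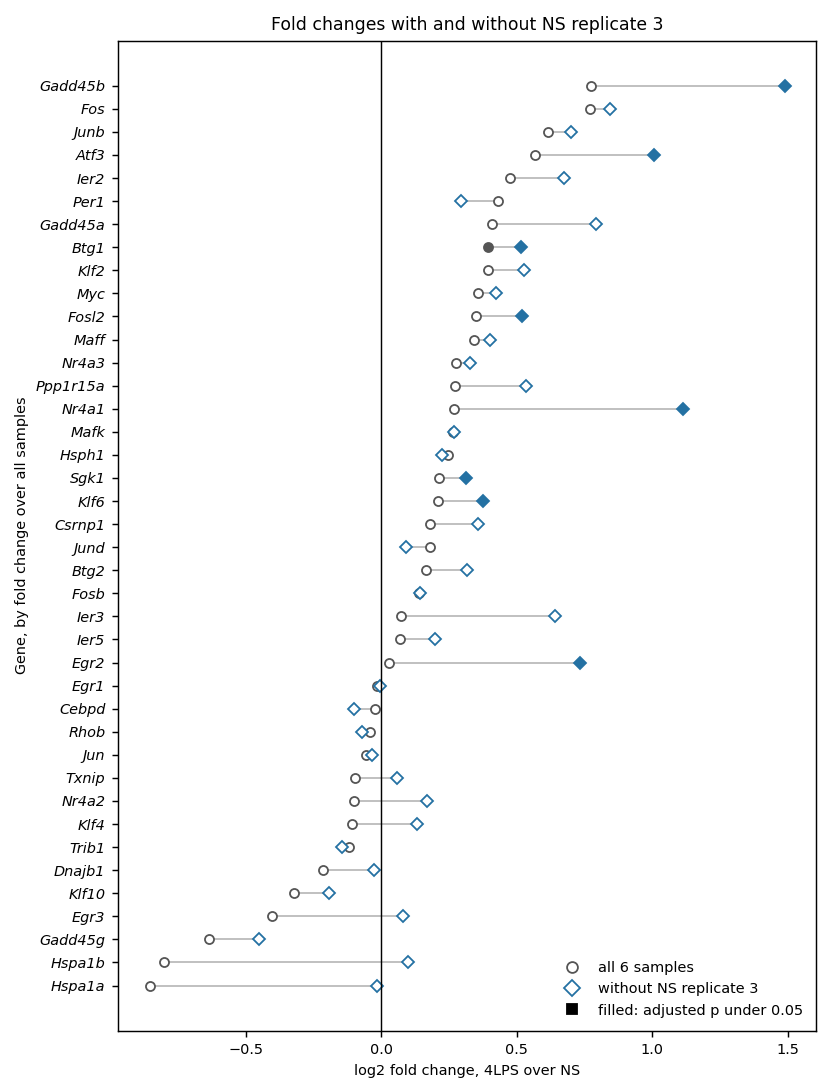
Log2 fold change of 4LPS over NS for the 40 genes over all 6 samples (circles) and without NS replicate 3 (diamonds), ordered by the value over all samples. Filled symbols passed an adjusted p of 0.05. *Nr4a1* (0.27 and 1.11), *Gadd45b* (0.78 and 1.49), *Egr2* (0.03 and 0.73), *Hspa1a* (-0.85 and -0.02) and *Hspa1b* (-0.80 and 0.10) shift most.

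Other genes of the same responses were listed by what they are known to do, and are given from the same test. The lists were drawn up with earlier results of these data known. Beside the counts of each list given here, 9.95% of all genes tested rose and 6.43% fell. Of 39 further AP-1 and early response genes tested, 7 rose and 1 fell, with a median log2 fold change of 0.12. The smallest adjusted p among them belonged to the MAP kinase phosphatase genes *Dusp2* (1.91, SE 0.33, adjusted p = 0.00783), *Dusp5* (1.80, SE 0.33, 0.0104) and *Dusp1* (1.04, SE 0.22, 0.0172), followed by the mRNA decay factor *Zfp36l1* (0.36, SE 0.08, 0.0181). The gene that fell was *Klf7* (-0.51). Of 37 further heat shock and chaperone genes tested, 3 rose and 4 fell, with a median of -0.09. The 3 that rose were *Hmox1*, a haem-degrading enzyme (0.60, SE 0.06, adjusted p = 0.000500), *Bag1*, a co-chaperone of HSP70 (0.56, SE 0.07, 0.00235), and *Hspe1*, the mitochondrial HSP10 (0.48, SE 0.08, 0.00494). Those that fell were *Serpinh1*, the collagen chaperone (-0.95), the small heat shock genes *Cryab* (-1.15) and *Hspb8* (-1.46), and *Dnajb2* (-0.29). Beside them, astrocyte markers summed to 257, 263 and 234 CPM in 4LPS, against 337, 359 and 345 CPM in NS, and their part in these falls was not tested. *Hsf1*, which encodes the master heat shock factor, had a log2 fold change of 0.02.

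Of 21 further genes listed for the glucocorticoid response, which are induced genes and the receptor gene *Nr3c1*, 4 rose and 3 fell. *Fkbp5*, a chaperone of the glucocorticoid receptor that the hormone induces, rose (0.57, SE 0.09, adjusted p = 0.00421), as did *Dusp1* (above), *Hif3a* (1.05) and *Bcl6* (0.35). *Sult1a1* (-0.74), *Plin4* (-1.66) and *Nr3c1* (-0.24) fell. Of 20 further circadian clock genes tested, 3 rose and 4 fell. The clock genes with the smallest adjusted p were *Hlf* (-1.54, SE 0.20, adjusted p = 0.00201), *Nr1d2* (0.34, SE 0.06, 0.00961), *Nfil3* (0.57, SE 0.13, 0.0254) and *Arntl* (-0.41, SE 0.10, 0.0294), which drives the clock.

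The promoters of 33 of the 40 genes were searched, as given in the RefSeq promoter table (GRCm38.p6). Those of *Trib1*, *Egr1*, *Cebpd*, *Klf10*, *Myc*, *Egr3* and *Ier2* were not searched, so the matches below say nothing about them. In the 250 bases before the start, searched on both strands, the CRE core TGACG was found for 19 of the 33 (57.6%), against 19.8% of all 27025 genes in the table. The full CRE, TGACGTCA, which contains the core, was found for *Btg2*, *Maff* and *Ppp1r15a* (9.09%, against 1.77% of all genes). The E-box CACGTG was found for 10 (30.3%, against 6.86%). The AP-1 site TGACTCA was found for *Csrnp1* only (5.16% of all genes), the CArG box of SRF for *Egr2* only (1.62%), and the heat shock element, searched as GAA, TTC and GAA with 2 bases of any kind between each, for none of the 33 (0.514%). Only exact matches to these patterns were counted, so a promoter without a match may still hold an imperfect element. The core was added to the search after the sequences were seen, and no allowance was made for the base composition of the promoters. Of the 2 genes that rose, *Btg1* and *Mafk*, both hold the core, and so do *Fos*, *Junb*, *Fosb*, *Nr4a1* and *Egr2*, which did not pass over all samples. The CRE of *Btg2* lies within the stretch from 200 to 121 bases before its start, at chr1:134007014-134007093 on the minus strand (GRCm39), shown with the CRE in capitals as the one full element printed here.
Btg2: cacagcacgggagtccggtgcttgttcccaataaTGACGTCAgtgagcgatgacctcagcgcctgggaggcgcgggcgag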

How the data were processed

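RNA-seq of CD11b+ cortex cells was analysed in 3 4LPS and 3 NS samples, grouped by their labels. The authors filtered reads with SOAPnuke, mapped them with HISAT2 2.0.4 and Bowtie2 2.2.5 to mm39 (the submitters' notes name mm39 and mm10), and estimated expression with RSEM 1.2.8. The sources used here give neither the gene annotation nor the strand setting. Deposited by the authors were expected counts, FPKM, TPM and a normalized signal (the count over a size factor). TPM, the deposited signal, the authors' group means and the authors' DESeq2 1.16.1 comparison were not used.

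Expected counts (2.77% not whole) were rounded and tested in R 4.3.3 with edgeR 4.0.16 (TMM, filterByExpr, quasi-likelihood F-test, Benjamini-Hochberg adjustment over 13151 genes). The script was tested on simulated data. The SE is the log2 fold change over the square root of F. FPKM ratios were taken within samples. Each stretch of promoter from the RefSeq table was matched to GRCm39 exactly once, and genes were placed by GENCODE M39. Alternatives were RLE, upper-quartile and no composition factors, no filter, a minimum of 50 counts in 3 samples, the DESeq2 1.42.0 test, limma 3.58.1 (voom, and log2(FPKM + 1) or log2(FPKM + 0.1) with at least 1 FPKM in 3 samples, and log2(FPKM + 1) unfiltered), a replicate block, a length correction, both, and leaving out each sample.

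The members and lists were chosen with earlier results of these data known. Values per sample are given for members past the test, members past it in an alternative with no overlap between groups, and *Fos*, *Jun*, *Egr1*, *Nr4a1*, *Klf2*, *Hspa1a*, *Hspa1b* and *Dnajb1*, and in each list the 4 genes lowest in adjusted p among those past it are named. *Atf3*, *Gadd45b*, *Egr2*, *Egr3*, *Ier2*, *Myc*, *Maff*, *Klf10*, *Hsph1*, *Sgk1*, *Hsf1* and further list genes were added after their values were seen.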

Additional observations from a re-analysis of the deposited data

How the results depend on the processing

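Of the 40 genes, 22 kept the sign of their fold change in all 19 alternatives, and 3 more (*Nr4a3*, *Maff* and *Gadd45a*) in those that tested them. The number higher, 2, was 1 with upper-quartile factors or without the filter, 0 without a composition factor or in any of the 3 FPKM fits, and 8 with the replicate block, alone or with the length correction (*Btg1*, *Fos*, *Junb*, *Atf3*, *Ier2*, *Klf2*, *Myc* and *Gadd45b*). Of all genes, 9.7% rose and 8.22% fell with the block (1275 and 1081), and 9.9% and 8.72% with the block and length correction. Of all genes tested, 1130 of 13151 rose with upper-quartile factors, 1271 of 16498 without the filter and 906 of 13151 without a composition factor. In the FPKM fits 823 and 813 of 11456 rose with the FPKM filter, and 818 of 16508 without it. The number lower, 0, was 1 (*Gadd45g*) without a composition factor, with DESeq2, in both filtered FPKM fits and with either block fit. Of all genes tested, 1711 of 13151 fell without a composition factor and 991 of 13151 with DESeq2. In the filtered FPKM fits 1486 and 1454 of 11456 fell. Over all genes tested, deviations from the group mean correlated between same-numbered samples with r = 0.496, -0.253 and 0.109 for numbers 1 to 3. Not every sample correlated best with its own number, so the numbers were not taken as pairs. These correlations were not computed over the 40 genes alone, whose median deviation rose from replicate 1 to replicate 3 in both groups (above). Leaving out 1 sample gave 0 to 8 higher, 0 lower and a median log2 fold change of 0.041 to 0.30.

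Over all genes the FPKM fits, which carry no composition factor, gave 823, 813 and 818 higher and 1486, 1454 and 1335 lower (35.6%, 35.9% and 38.0% of calls higher), and edgeR without a composition factor gave 1711 lower. Leaving out 1 sample gave 781 to 1629 higher and 363 to 1215 lower. Of the further AP-1 and early genes, the higher count was 4 in the unfiltered FPKM fit and 12 with either block fit (2 to 14 with a sample left out), and the lower count 2 with upper-quartile factors or the minimum of 50 counts, 5 without a composition factor and 4 in each FPKM fit (0 to 2). Heat shock genes lower were 8 without a composition factor and in both filtered FPKM fits (2 to 3 with a sample left out). Glucocorticoid response genes higher were 2 in the filtered FPKM fits (1 to 6), and lower 5 without a composition factor (2 to 5). Clock genes higher were 1 in the unfiltered FPKM fit (1 to 4), and lower 1 to 5 with a sample left out.

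*Egr2* turned to -9.133e-05 with upper-quartile factors and -0.067 without a composition factor, *Ier3* to -0.024 without one, and *Ier5* to -0.030 without one and to -0.029 in all FPKM fits. With a sample left out, fold changes crossed 0 in 15 genes: *Fosb* (-0.10 to 0.42), *Jun* (-0.21 to 0.092), *Jund* (-0.024 to 0.42), *Egr1* (-0.21 to 0.14), *Egr2* (-0.25 to 0.73), *Egr3* (-0.70 to 0.081), *Ier3* (-0.20 to 0.64), *Ier5* (-0.084 to 0.20), *Nr4a1* (-0.059 to 1.11), *Nr4a2* (-0.32 to 0.17), *Klf4* (-0.37 to 0.13), *Rhob* (-0.10 to 0.065), *Hspa1b* (-1.15 to 0.10), *Txnip* (-0.20 to 0.058) and *Cebpd* (-0.10 to 0.050). The cause was not tested. With 3 samples per group, differences within the spread between pools were not detectable.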
